A study of Drosophila melanogaster with 2 samples.

Results

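The chemosensory receptor genes of Drosophila melanogaster were examined in a chromatin immunoprecipitation sequencing (ChIP-seq) data set for Daughterless. They were the 179 protein-coding genes, of 13945 annotated on the chromosome arms, whose symbol joins Or, Gr or Ir to a cytological number and a letter. Of these, 59 were odorant receptor (Or) genes, 60 gustatory receptor (Gr) genes and 60 ionotropic receptor (Ir) genes. A further 6 annotated pseudogenes with such symbols were left out. Symbol and annotation chose the genes, and no binding value entered the rule. Earlier results of these data were known when the rule was set. The samples formed 1 group, whole embryos of a da-GFP transgenic line, in which a Daughterless protein with GFP at its C-terminal end was stably expressed. The embryos were a mixed-sex pool aged 0 to 24 h, and the antibody was against GFP. There were 2 biological replicates, numbered 2 and 3, and no second genotype, stage or treatment, so all comparisons were between genes of the same genome. The whole embryo mixes all tissues, so a region at a gene cannot be placed in a cell type.

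Daughterless is the broadly expressed class I basic helix-loop-helix protein of the fly. It pairs with tissue-restricted partners such as Atonal and Amos, the proneural proteins from which olfactory sense organs arise, and the pairs bind E-boxes, sequences of the form CANNTG. Or proteins are odour-gated channels that work with the co-receptor Orco. Gr proteins detect sugars, bitter compounds and carbon dioxide, and Ir proteins, relatives of ionotropic glutamate receptors, detect acids, amines, temperature and humidity. The receptors are made late, in differentiated sensory neurons, and many of them only in the larva or adult.

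A peak here is one of the 1941 regions in the authors' list thresholded on irreproducible discovery rate (IDR), a measure of how alike regions rank between replicates. A gene was said to have a peak where a summit lay within 1000 bp of its span. By this rule 6 of 179 receptor genes had a peak: Ir31a, Ir68b, Or88a, Gr89a, Gr32a and Or46a. Every one of these summits lay outside the span of the receptor gene. At 5 of the 6, the nearest transcription start site (TSS) belonged to a neighbour that is not a chemosensory receptor. A summit outside the span was also common at other genes of 1239 to 3375 bp. Of 5185 such genes, 711 had a peak by the same rule, and 142 of them had a summit in the span itself.

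The sequences under the summits show what the embryo's Daughterless signal lay on beside these genes. They are the plus strand of the Release 6 assembly from RefSeq, within 50 bp of the summit and with annotated exon bases removed. Capitals mark CANNTG (in Or88a) and TATCGAT (in Ir68b). TATCGAT was searched only after the sequences had been seen. The positions are 2L:10408283-10408351 for Ir31a, 3L:12125151-12125228 for Ir68b, 3R:14108610-14108710 for Or88a, 3R:16497505-16497605 for Gr89a and 2L:11113180-11113280 for Gr32a.
Ir31a: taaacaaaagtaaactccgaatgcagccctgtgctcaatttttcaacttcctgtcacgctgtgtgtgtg
Ir68b: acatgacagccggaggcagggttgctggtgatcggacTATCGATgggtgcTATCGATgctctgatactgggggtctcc
Or88a: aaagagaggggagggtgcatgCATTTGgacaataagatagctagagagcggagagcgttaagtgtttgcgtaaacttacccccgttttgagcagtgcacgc
Gr89a: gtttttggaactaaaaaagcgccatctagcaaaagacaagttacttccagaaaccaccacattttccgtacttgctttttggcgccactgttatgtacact
Gr32a: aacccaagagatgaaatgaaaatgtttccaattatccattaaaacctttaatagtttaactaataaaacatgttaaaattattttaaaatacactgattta

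The highest of the 6 peaks was at Ir31a, which encodes an ionotropic receptor of the antenna (FBgn0051718, dm6 2L:10405565-10408197, plus strand). The summit at 2L:10408333 had a signal of 103.9 in replicate 2 and 102.1 in replicate 3, and 209.3 in the pooled list, where it ranked 108. Signal is the value the authors deposited for each region in the signal column of the list. What it measures is not stated in the files, and it is used here only to rank and describe regions within a list, and pooled values are on a larger scale than those of single replicates. The summit lay 136 bp past the 3′ end of Ir31a and 2768 bp from its TSS. It was 19 bp upstream of the shared TSS of Ip259 and RpS27A, the second of which encodes a ribosomal protein fused to ubiquitin.

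Ir68b (FBgn0036250, 3L:12125487-12127394, minus strand) had the second peak. Its summit at 3L:12125178 had a signal of 75.6 in replicate 2 and 82.2 in replicate 3, with a pooled rank of 219. It lay 309 bp past the 3′ end of Ir68b and 28 bp upstream of the TSS of yps, which encodes a Y-box RNA-binding protein. Both high peaks therefore stood at the promoter of a gene next to the 3′ end of the receptor gene, and both were about as high in one replicate as in the other.

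Or88a, an odorant receptor of trichoid sensilla (FBgn0038203, 3R:14109445-14110823, plus strand), had its summit at 3R:14108660. The signal was 38.7 in replicate 2 and 43.7 in replicate 3, and the pooled signal of 85.6 ranked 1036. The summit was between divergent genes, 785 bp upstream of the TSS of Or88a and 339 bp from that of CG12402. Gr32a, a receptor for bitter compounds (FBgn0041246, 2L:11114014-11115823, plus strand), had the same arrangement. Its summit at 2L:11113230 was 784 bp upstream of Gr32a and 169 bp from the TSS of Idua, the fly homologue of iduronidase. The signal at Gr32a was 33.9 in replicate 2 and 27.5 in replicate 3, with a pooled value of 67.8 and a rank of 1717. These were the only peaks of the 6 that lay upstream of the receptor gene.

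Or46a, an odorant receptor of the maxillary palp (FBgn0026388, 2R:10139264-10142074, plus strand), had a signal of 19.4 in replicate 2 and 47.9 in replicate 3. Its pooled signal was 66.9, with a rank of 1767. The summit at 2R:10142403 lay 329 bp past the 3′ end of Or46a, in an exon of CG18011 and 65 bp from the TSS of that gene. Gr89a, also a bitter receptor (FBgn0038440, 3R:16497817-16498959, minus strand), had a signal of 25.6 in replicate 2 and 45.6 in replicate 3, and 73.9 in the pooled list, where it ranked 1423. Its summit at 3R:16497555 was the only one of the 6 with a receptor gene's TSS nearest, at 1404 bp. It lay 262 bp past the 3′ end of Gr89a, and the next TSS, of the cadherin gene Cad89D, was 2133 bp away. At Or46a and Gr89a replicate 3 was the higher one, and at the other 4 genes the replicates were closer together.

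**Figure D1:**
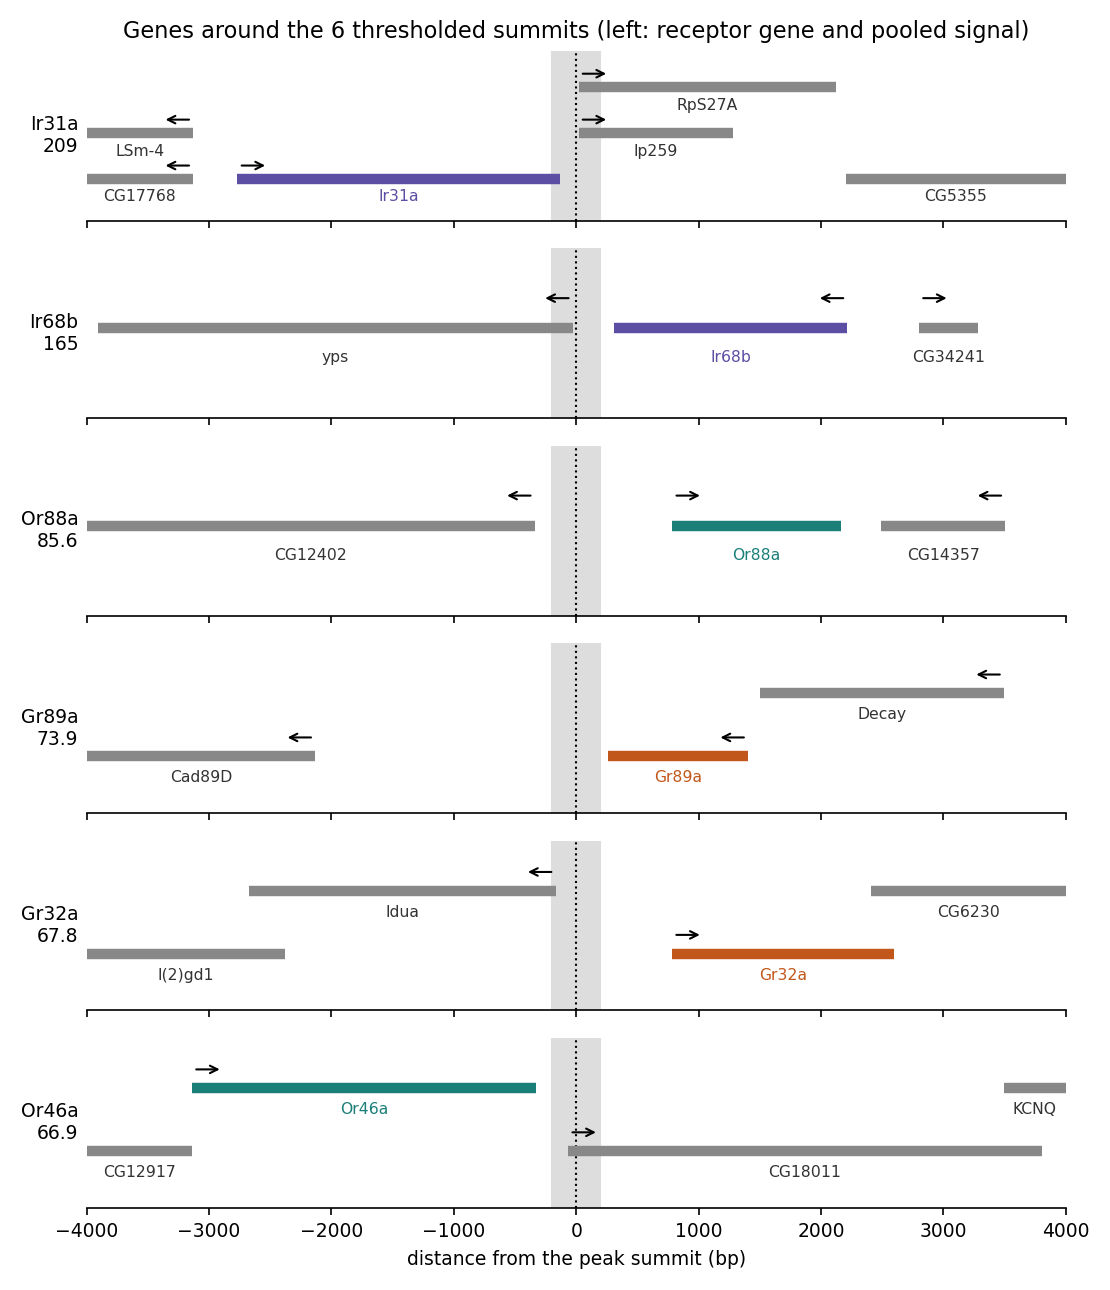
Genes within 4000 bp of the summit of each of the 6 thresholded peaks at receptor genes; the horizontal axis is the distance from the summit in bp, coloured bars are receptor genes, grey bars are other genes and arrows mark TSSs with their direction. The shaded band is 200 bp to each side of the summit, which holds the TSS of a neighbour for Ir31a, Ir68b, Gr32a and Or46a.

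The peaks at the receptor genes ranged from 66.9 to 209.3, beside a lowest signal of 64.2, a median of 88.2 and a highest of 877 over all thresholded regions. Ir31a and Ir68b were the only 2 receptor genes with a summit among the 1000 highest peaks, beside 9.07% of all protein-coding genes. In the 1941 highest regions of replicate 2, 4 receptor genes had a summit (Gr32a, Ir31a, Ir68b and Or88a), beside 16.0% of all protein-coding genes. In the 1941 highest of replicate 3, 5 had one (Gr89a, Ir31a, Ir68b, Or46a and Or88a), beside 16.0% of all genes. Ir31a, Ir68b and Or88a had one in both (1.68%), beside 11.6% of all genes.

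**Figure D2:**
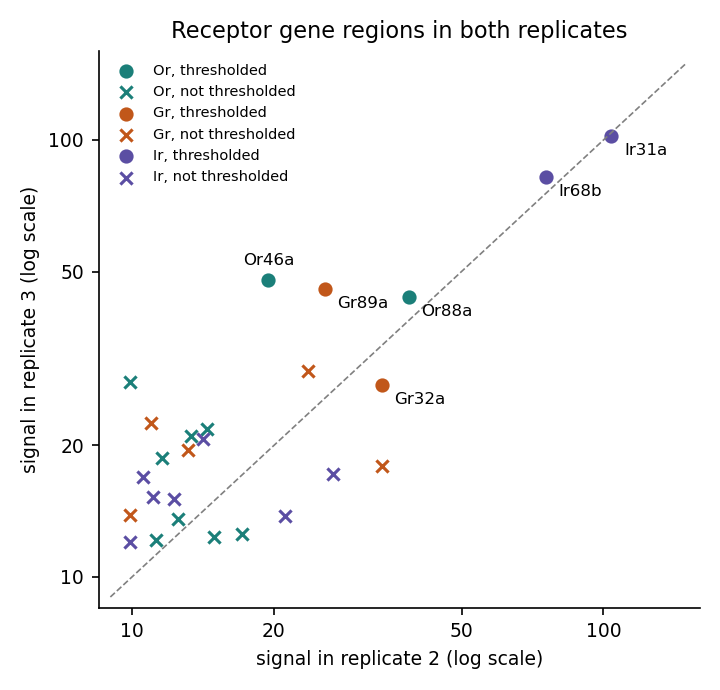
Signal of pooled regions at receptor genes that were matched within 200 bp in both replicates, replicate 2 on the horizontal and replicate 3 on the vertical axis, both log scales; filled points are thresholded, crosses are not, and the dashed line marks equal values. Ir31a and Ir68b lie close to the line at the top, while Or46a and Gr89a lie above it.

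The 6 genes with a peak were 3.35% of the 179 receptor genes (exact 95% binomial interval 1.24 to 7.15%), against 2249 of all 13945 protein-coding genes, or 16.1%. The shares of the 3 families lay within one another's intervals. Of the Or genes 2 of 59 had a peak (3.39%, interval 0.413 to 11.7%), of the Gr genes 2 of 60 (3.33%, 0.406 to 11.5%) and of the Ir genes also 2 of 60. Intervals cover counting error only, and genes that lie in tandem are not independent. No test was made of these shares.

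Receptor genes are short, with a median span of 1691 bp, against 2166 bp for all genes. Among genes of 1239 to 3375 bp, a range that holds 143 of the receptor genes, 5 of 143 had a peak (3.50%), against 13.7% of 5185 other genes. Another gene's TSS, that of a receptor gene included, lay in the span or within 1000 bp of it for 75 receptor genes (41.9%), against 62.6% of other genes. Of these 75, 4 had a peak (5.33%, interval 1.47 to 13.1%), against 21.2% of the other genes with such a neighbour. Of the 104 receptor genes with none, 2 had a peak (1.92%, interval 0.234 to 6.77%), against 8.02% of such other genes. When neighbours were instead counted by the distance from TSS to TSS, 35 receptor genes had one within 1000 bp and 3 of these had a peak (8.57%, interval 1.80 to 23.1%), against 23.9% of other genes. Of the remaining 144, 3 had a peak (2.08%, interval 0.432 to 5.97%), against 10.5%. By either distance, the share was lower for receptor genes in both classes.

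**Figure D3:**
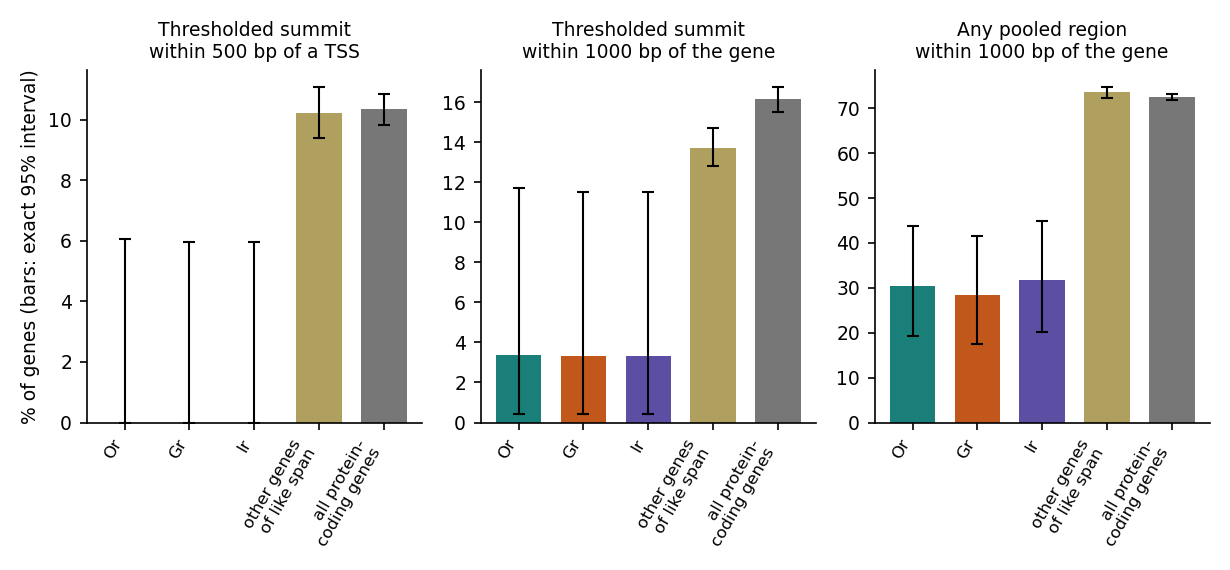
Share of genes with a region, in percent, for the Or, Gr and Ir genes, other genes of like span and all protein-coding genes, with exact 95% binomial intervals as error bars; each of the 3 panels has its own vertical axis starting at 0. The receptor families are at 0 near a TSS, at 3.33 to 3.39% within 1000 bp of the gene and at 28.3 to 31.7% for pooled regions, under the value for all genes in each panel.

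No receptor gene had a summit within 500 bp of one of its own TSSs. The count was 0 of 179, which allows a share of up to 2.04%, against 10.3% of all genes. When each summit was given to the gene of the nearest TSS alone, 3 receptor genes had one, against 11.5% of all genes. They were Gr89a and, beyond 1000 bp, Gr93a and Gr93d. The summit at 3R:21828379 was 4124 bp from the TSS of Gr93a and had a signal of 92.9, and that at 3R:21850244 was 3585 bp from Gr93d and had 64.3.

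The distance from a receptor gene's TSS to the nearest peak had a median of 37175 bp, against 15912 bp for other genes of like span and 17906 bp for all genes. The median was 58375 bp for Or, 28170 bp for Gr and 27243.5 bp for Ir genes. Within 5000 bp, 18 receptor TSSs had a peak (10.1%), against 24.1% of all genes. The farthest was Ir41a, with the nearest peak 1159118 bp away.

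**Figure D4:**
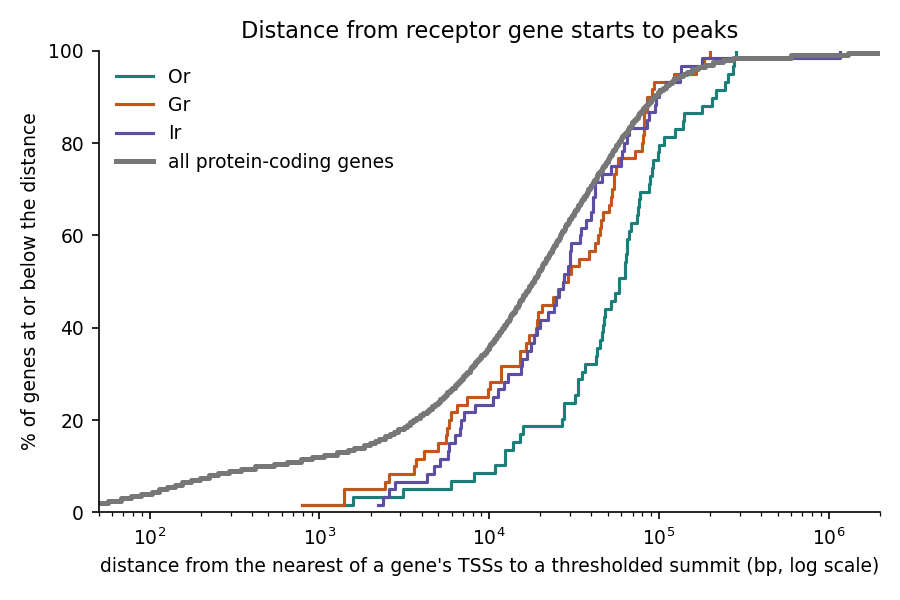
Cumulative share of genes, in percent, by the distance in bp (log scale) from the nearest of a gene's TSSs to a thresholded summit, for the 3 receptor families (coloured) and all protein-coding genes (grey). The receptor curves run under that of all genes at short distances, with 10.1% of receptor genes within 5000 bp against 24.1% of all genes.

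The authors also deposited a relaxed list of 30000 pooled regions, which holds background beside peaks. In it 54 receptor genes had a region within 1000 bp (30.2%, interval 23.5 to 37.5%), against 72.5% of all genes. Among genes of like span it was 48 of 143 receptor genes (33.6%), against 73.5% of other genes. The families were again close, with 18 Or genes (30.5%), 17 Gr genes (28.3%) and 19 Ir genes (31.7%). Each replicate's relaxed list held a region within 1000 bp, not necessarily the same one, at 34 receptor genes (19.0%), against 64.1% of all genes. For 91 receptor genes no region was found in any of the lists, 28 of them Or, 31 Gr and 32 Ir genes. No share over all genes stands beside this count. In the pooled list alone, 125 of 179 receptor genes had no region, against 3834 of 13945 genes.

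The 70 distinct pooled regions at receptor genes had a median signal of 23.0, against 25.5 over all 30000 pooled regions. The highest at each gene, which also depends on how many regions a gene has, had a median signal of 24.6 over receptor genes with one, against 34.8 for other genes of like span and 36.7 for all genes. It was 25.2 for Or, 21.7 for Gr and 23.5 for Ir genes. Of the 70 regions, 26 were matched within 200 bp in both replicates (37.1%, against 41.8% of all 30000). Replicate 2 alone held a match for 20 more and replicate 3 alone for 16, and 8 had no match. The nearest protein-coding TSS was a receptor gene's at 47 regions and another gene's at 23.

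**Figure D5:**
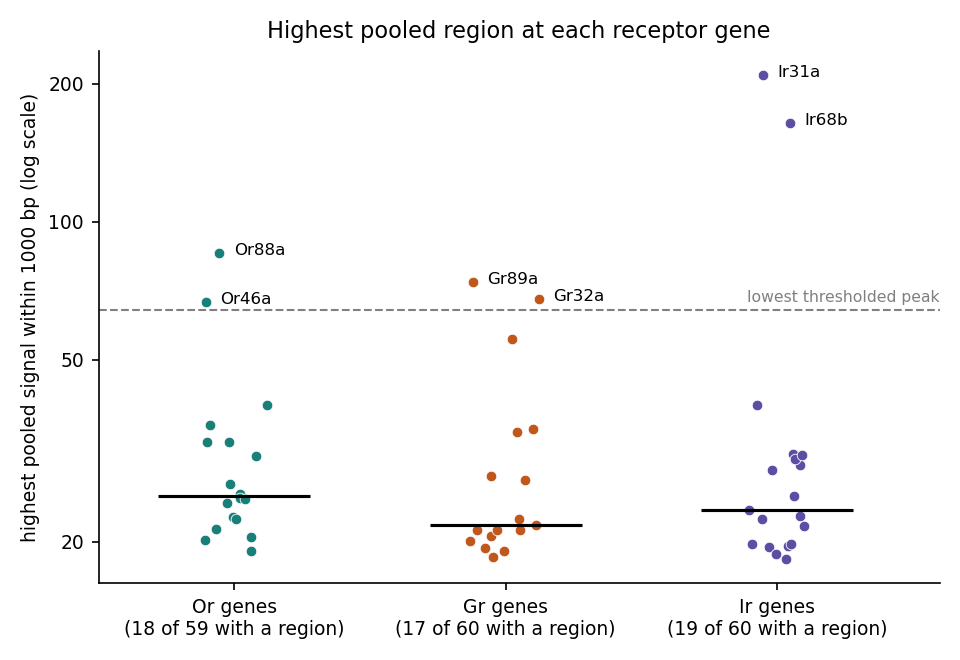
Highest pooled signal within 1000 bp of each receptor gene (log scale) for the 18 Or, 17 Gr and 19 Ir genes with a region; each point is a gene, the thick bar is the median over those genes, and the dashed line is the lowest thresholded signal of 64.2. Points above the line are the 6 genes with a peak, and the others lie at 55.5 or less.

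Just outside the threshold stood Gr64a, a sugar receptor gene, with 55.5 in the pooled list, 23.6 in replicate 2 and 29.6 in replicate 3. Its region was 78 bp from the TSS of CG11594. It was the only unthresholded region at a receptor gene with a q of 0.05 or less, and with it 7 receptor genes passed that rule, against 31.8% of all genes.

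Of the Or genes without a peak, the highest pooled signals were 39.7 at Or85f, 36.0 at Or56a, 33.1 at Or82a, 33.0 at Or65b and 30.9 at Or43b. Or56a is the receptor for geosmin. The region at Or85f was 14 bp from the TSS of CG34117. Those at the other 4 had the receptor gene's own TSS nearest among protein-coding genes. At Or56a this TSS was 2498 bp away, and that of a 5S ribosomal RNA gene was 2457 bp away. The summit at Or82a was 85 bp from its TSS, with a signal of 21.6 in replicate 3 and no matched region in replicate 2. Or65b had 21.7 in replicate 2 and no matched region in replicate 3.

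Of the Gr genes, Gr63a had 35.3, Gr97a 34.8, Gr28a 27.8 and Gr85a 27.4 in the pooled list. Each of these regions had another gene's TSS nearest. For Gr63a, a subunit of the carbon dioxide receptor, it was that of Lamtor4 at 12 bp, and for Gr97a that of CG5521 at 122 bp. Of the Ir genes, Ir60e had 39.7, Ir60b 31.1, Ir100a 30.9, Ir87a 30.4 and Ir75d 29.5. The region at Ir60e was 42 bp from CG13585 and that at Ir60b 299 bp from Letm1. That at Ir100a was 5 bp from its own TSS, with 14.2 in replicate 2 and 20.6 in replicate 3.

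By role, the 3 Ir co-receptors had no peak (interval 0 to 70.8%). Ir8a had a pooled signal of 22.4, and Ir25a and Ir76b had no pooled region within 1000 bp. In the single replicates, the highest region at Ir25a had 9.65 in replicate 2 and 14.0 in replicate 3. At Ir76b it had 9.55 and 13.9. These regions were taken in each replicate separately and were not matched to each other. The lowest signal in the list was 9.32 for replicate 2 and 11.3 for replicate 3. Of 16 antennal Ir genes 1 had a peak, Ir31a (6.25%, interval 0.158 to 30.2%). Of 9 sugar receptor genes none had one (interval 0 to 33.6%), including Gr5a, for trehalose, and Gr43a, for fructose, neither of which had a pooled region. All of these intervals hold the 16.1% of all genes with a peak. A peak with a signal of 66.5 lay 1392 bp from the TSS of Gr5a, and its nearest TSS was that of Tre1 at 752 bp.

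Both carbon dioxide receptor genes had a pooled region but no peak, Gr63a as given above and Gr21a with 22.4. Of the 5 Gr genes listed as common bitter receptors, 2 had a peak, Gr32a and Gr89a. With so few genes the interval on that share, 5.27 to 85.3%, holds the 16.1% of all genes. Gr66a had a pooled signal of 19.1 and Gr28b had 20.1, near the lowest signal of the pooled list, 18.1. Neither region had a match in replicate 2, and that at Gr28b had none in replicate 3. None of 25 larval Or genes had a peak, which allows a share of up to 13.7%. A pooled region was at 7 of them (28.0%), against 30.5% of all Or genes and 72.5% of all genes. Or42a had 21.3 and Or83a 24.97, while Or35a and Or42b had no pooled region. Orco, the shared co-receptor, had a pooled signal of 27.0, with a rank of 13149.

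Arrangement in the genome differed between receptor genes. Within 5000 bp of another receptor gene lay 79 genes, in 28 clusters of up to 6. Of these 17 had a pooled region (21.5%) and none had a peak, against 37 of the 100 single genes (37.0%), which held all 6 peaks. The peak counts are small, genes in a cluster are not independent, and the difference was not tested. A protein-coding gene outside the families contained 25 receptor genes. For 5 of these the host had a peak: Ir48c in ths, Ir51b in row, Ir60a in nord, Ir85a in Pif1A and Pif1B, and Gr94a in p53. These summits were 1203 to 6036 bp from the receptor gene. Counted by host, 6 of 24 had a peak. Of all genes, 16.1% had a summit within 1000 bp of the span and 6.53% had one in the span itself. The hosts spanned 4426 to 137878 bp, against a median of 2166 bp for all genes. The part of host length in the count was not tested. Or19a and Or19b are near-identical copies, with 70.9 and 74.5% of their 31-base words repeated in the genome, and neither had a region. The part of the repeated sequence in this was not tested.

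CANNTG lay within 50 bp of 1 of the 6 summits, at Or88a, against 42.6% of all 1941. In windows of equal size 300 bp to either side it lay at 3 and 1 of the 6, and at 41.6 and 40.0% of all. The share at all summits was thus close to that beside them. CAGCTG, one form of CANNTG, lay at 0 of 6, against 10.5% of all. Beside the summits it lay at 1 and 1 of the 6, and at 5.31 and 4.33% of all. Both motifs read the same on either strand up to the middle bases, so both strands were covered. The region at Or46a had a CAGCTG 100 bp from its summit. Among the 64 unthresholded regions 43.8% had CANNTG at the summit, and 43.8 and 46.9% had it in windows of equal size 300 bp to either side. CAGCTG was at 9.38% of these 64 summits. TATCGAT was at 1 of the 6 summits, that of Ir68b next to yps with 2 copies, against 4.53% of all summits and 1.60 and 1.65% of the windows beside them.

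In the 300 bp promoter, 250 bp before to 50 bp after the TSS, 17 of 179 receptor genes had CAGCTG (9.50%, interval 5.63 to 14.8%), against 17.7% of all genes. CANNTG was in 83.2% of receptor promoters, against 77.2% of all. None of the 17 genes had a peak, and 3 had a pooled region (Ir21a, Or67c and Ir7g). Sites of 4 of these promoters are shown because they hold the letters without a peak, on the gene's strand with 10 bases to each side and CAGCTG in capitals. They lie at 2L:25174-25199 for Ir21a, 2L:2054518-2054543 for Or22c, 3L:841272-841297 for Gr61a and 3L:17817903-17817928 for Ir75a.
Ir21a: aaaaggctcaCAGCTGaaaacacatc
Or22c: ttgcccggagCAGCTGaccactggag
Gr61a: agcggggcagCAGCTGcgtcagctcc
Ir75a: gtcaacaatgCAGCTGgtccagttgg

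Of 15 regulators of chemosensory development 4 had a peak (26.7%, interval 7.79 to 55.1%), beside 16.1% of all genes, which lies within that interval. A pooled region was at 14 of the 15 (93.3%, interval 68.1 to 99.8%), beside 72.5% of all genes, which lies within that interval too. Of the genes of Atonal and Amos, ato had no pooled region within 1000 bp. The other, amos, had 22.4, with no matched region in replicate 2. The peaks were at da itself, with a signal of 97.2 just upstream of its TSS, and at sim (74.7), Xbp1 (71.2) and vvl (69.0). The transgene carries da, so how much of the signal there comes from it was not tested. Of 49 odorant binding protein genes 2 had a peak (4.08%, interval 0.498 to 14.0%), beside the same 16.1%. A pooled region was at 17 of them (34.7%), beside the same 72.5%. Obp99b had 73.3 with its own TSS at 250 bp, and Obp56f had 65.5 with the TSS of CG8517 nearest.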

How the data were processed

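ChIP-seq used anti-GFP antibody on chromatin sonicated to 200 to 800 bp, per the labels. The authors deposited dm6 region lists per replicate and pooled, with 30000 relaxed regions each, and 1941 thresholded regions, made with a control per the deposited notes. Each region has a signal and a −log10 q value, as the authors deposited them. Neither the labels nor the notes name a caller, an aligner or a threshold on IDR. The lists hold no read counts, so depth is unknown. Lists in dm3 were not used.

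Genes came from Ensembl release 115 and sequence from the RefSeq Release 6 assembly, in 1-based positions. A summit was assigned to every gene whose span it lay within 1000 bp of, and its owner was the nearest protein-coding TSS. Shares have exact 95% binomial intervals (scipy 1.17.1, pandas 2.3.3, Python 3.11.15). No p-value was computed, since 1 group gives no contrast. Assignment was checked on simulated summits. Genes named were those with a peak, the 5 highest per family without one and a list of familiar receptors. The members and lists were chosen with earlier results of these data known. Like-span genes, neighbour classes and TATCGAT were added after seeing the data.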

Additional observations from a re-analysis of the deposited data

How the results depend on the processing

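The count of receptor genes with a peak was 6, and became 0 with no extension of the span, 0 within 500 bp of a TSS, 3 by nearest TSS only and 2 in the 1000 highest peaks. It ranged from 4 to 5 when either replicate was left out. The Or count of 2 became 0 under each of those 4 settings and 1 within 500 bp of the span, and 1 to 2 without a replicate. The Gr count of 2 became 0 with no extension, within 500 bp of a TSS and in the 1000 highest, 1 within 500 bp of the span and 4 within 2000 bp, and was 1 without either replicate. The Ir count of 2 became 0 with no extension, within 500 bp of a TSS and by nearest TSS, and stayed at 2 without either replicate. Narrower windows and the 1000 highest peaks search fewer bases or peaks and the 2000 bp window more. By nearest TSS, 5 of the 6 summits went to a neighbour, and Gr93a and Gr93d were added from beyond 1000 bp. For the left-out replicates the cause was not tested. Receptor genes with a pooled region numbered 54, and 29 with no extension; single replicates gave 59 to 60. The median highest signal of 24.6 was 21.7 with no extension, and 12.3 to 14.5 in single replicates, whose signal is on a smaller scale. No paired analysis was possible because there is 1 group. With 2 replicates and no counts, regions of low signal cannot be told from background.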
